A study of Ovis aries with 12 samples.

Results

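In 3 of 12 sheep mitral valve leaflet libraries, a single gene, ENSOARG00000004871, took more than 5% of all counts. These 3 libraries are described here against 6 reference libraries in which that gene took at most 5% and the 37 gene IDs with the lowest numbers took under 5% together. The other 3 libraries had over 5% in the 37 lowest-numbered IDs and were left out. ENSOARG00000004871 was the gene with the largest count summed over all 12 libraries. The libraries were thus chosen by measured values, the count shares of this gene and of the 37 IDs, and are no treatment group of the study. The deposited table pairs no gene ID with a name, so genes are given by ID or by their rank in summed counts.

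The anterior leaflet was taken from adult Dorset sheep before or at 4 or 8 weeks after a posterior myocardial infarction (MI), produced by ligating marginal branches of the circumflex artery of the heart. Some infarcted animals leaked blood backward through the valve, called ischemic mitral regurgitation (IMR), and echocardiography graded the leak. Each library came from 1 animal. All 3 libraries above 5% were from 4 weeks: replicate 1 without IMR, and replicates 2 and 3 with IMR. The reference libraries were pre-MI replicates 3 and 4, 4-week replicate 5 without IMR, 4-week replicate 4 with IMR, 8-week replicate 3 without IMR and 8-week replicate 2 with IMR. Pre-MI animals had no infarct and no IMR. The libraries left out were pre-MI replicate 2, 8-week replicate 4 without IMR and 8-week replicate 1 with IMR.

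A mitral leaflet is a thin sheet of connective tissue covered by endothelium. Fibroblast-like interstitial cells inside it make and turn over a matrix of collagen, proteoglycans and elastic fibres, and they can take on a contractile, matrix-producing state when the leaflet is stretched. The base of the leaflet joins the fibrous ring of the valve, next to heart muscle. A leaflet library is thus a mixture of RNA from several cell types, and fewer cells of a type cannot be told apart from less RNA per cell. Without gene names the levels of cell type markers were not analysed here.

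ENSOARG00000004871 took 10.2% of counts in 4-week replicate 1 without IMR (95% exact binomial interval 10.16% to 10.19%). Its share was 5.74% in 4-week replicate 3 with IMR and 5.34% in 4-week replicate 2 with IMR. The 6 reference libraries ran from 2.63% to 4.51%, with a median of 3.44%, and the libraries left out from 1.66% to 2.79%. The members nearest the 5% threshold were thus 5.34% on the inside and 4.51% (8-week replicate 3 without IMR) on the outside. In CPM (counts scaled to a common library size, here with TMM factors that adjust for composition), the gene averaged 2.67-fold more in the 3 libraries than in the 6. These values chose the libraries and carry no test. The gene was the most counted gene in 10 of the 12 libraries. Both 4-week libraries in the reference, at 3.07% and 3.71%, lay inside the range of the pre-MI and 8-week reference libraries.

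**Figure D1:**
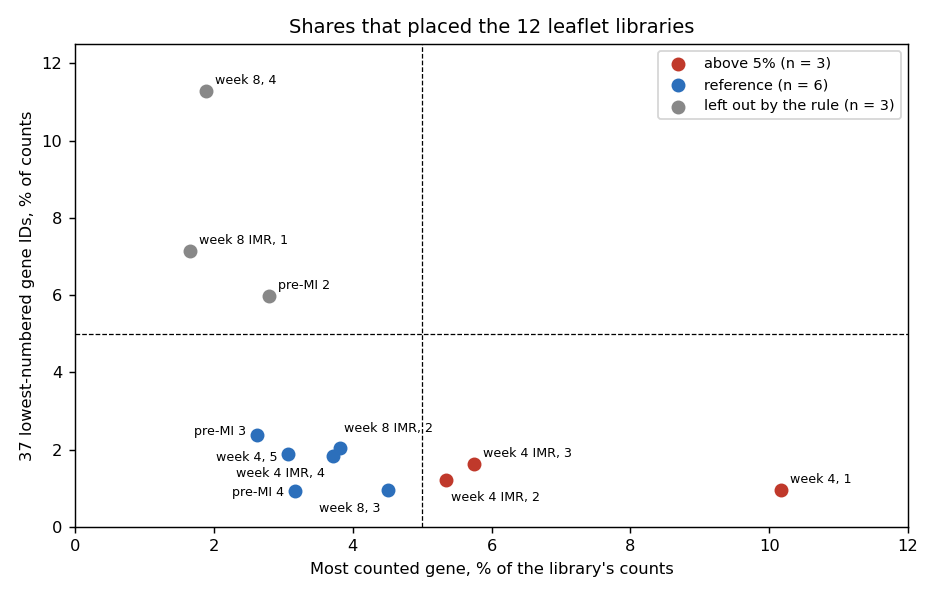
Each point is 1 leaflet library, with the share of counts of the most counted gene on the x axis and the summed share of the 37 lowest-numbered gene IDs on the y axis (both in percent), labelled by time, IMR and replicate number. Dashed lines mark the 5% thresholds; the 3 libraries above 5% on the x axis are all from 4 weeks, and 10.2% in week 4 replicate 1 lies far to the right of the other 11.

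Total counts were 12056543 to 12847094 in the 3 libraries above 5% and 7768007 to 19175100 in the reference. The number of genes expected at the depth of the shallowest library, 7768007 counts, was 15627 to 16237 against 16027 to 16628, so the sides overlapped. The 37 lowest-numbered IDs held 0.957% to 1.63% against 0.928% to 2.38%. Apart from the genes of the rule, the 10 most counted genes held 17.6% of the remaining counts in 4-week replicate 1 without IMR, 11.3% and 11.9% in the other 2 libraries above 5%, and 8.32% to 13.0% in the reference. Only replicate 1 exceeded every reference library in this share.

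Outside the genes of the rule, 3309 of 14025 genes (23.6%) differed between the 3 libraries and the 6 at an adjusted p under 0.05 in edgeR's quasi-likelihood test. Of these, 1327 genes (9.46% of those tested) were higher and 1982 (14.1%) were lower where ENSOARG00000004871 was abundant. The sides did not overlap for 3587 genes (25.6%), 1425 of them higher (10.2%) and 2162 lower (15.4%). The libraries were parted by a measured count, so these p-values describe how 9 animals' libraries differed and test no treatment. The count was 0 when the threshold was set at 4%, which moves 8-week replicate 3 without IMR across (4 libraries against 5; 3480 genes had a p under 0.05 in edgeR before adjustment). Leaving out 4-week replicate 2 gave 1165 genes, and leaving out 4-week replicate 3 gave 1479.

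Among the genes that passed, the decreases had the larger median. The lower genes also had the larger median SE, 0.279 against 0.225, and a larger SE takes a larger change to pass. The 1982 lower genes had a median log2 fold change of -1.24 (quartiles -1.63 and -0.93), and 1386 of them changed more than 2-fold. The 1327 higher genes had a median of 0.90 (quartiles 0.75 and 1.16), and 508 changed more than 2-fold. More than 4-fold changes were found in 247 lower and 72 higher genes. The smallest differences that passed the test were 0.45 and -0.48 on the log2 scale, and the median over all tested genes was -0.0020.

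**Figure D2:**
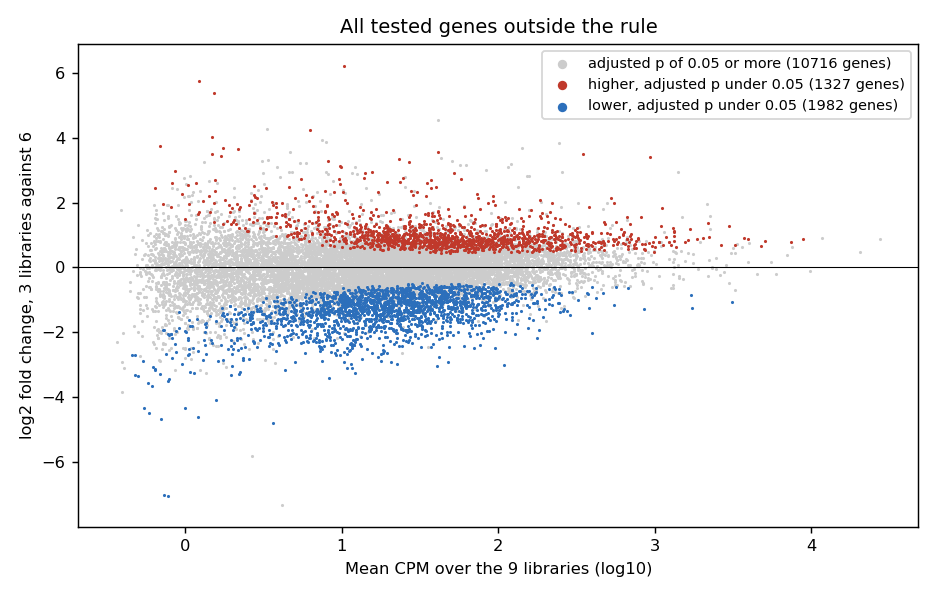
Each point is 1 of the 14025 tested genes outside the rule, with its mean CPM over 9 libraries on the x axis (log10 scale) and its log2 fold change, 3 libraries against 6, on the y axis. Red points (1327) were higher and blue points (1982) lower at an adjusted p under 0.05 in edgeR; most of the rightmost coloured points are red.

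The direction of change went with how strongly a gene was counted. Among the genes of rank 2 to 100 in summed counts, 30 of 99 rose and 3 fell. For ranks 101 to 1000, 219 of 900 rose and 54 fell. From rank 1001 to 5000 the numbers were close, with 549 of 4000 higher and 595 lower, and with RLE factors in place of TMM the balance turned (668 higher and 554 lower). Below rank 5000, 529 of 9026 genes rose and 1330 fell. The median log2 fold change went from 0.64 in the first of these classes to 0.37, 0.13 and -0.12. The last value was -0.074 with RLE factors and -0.0099 with all 12 libraries fitted as 3 groups. That fit of 12 had 746 higher and 476 lower genes from rank 1001 to 5000, and 669 and 1085 below rank 5000. The summed counts include the 3 libraries, which by itself moves genes higher in them up the ranks. In counts, the 1327 higher genes took 25.5%, 29.9% and 26.1% of the reads outside the rule's genes in 4-week replicates 1, 2 and 3, against 15.0% to 18.7% in the reference. The 1982 lower genes took 4.52%, 3.65% and 3.75%, against 9.57% to 13.2%. These shares restate the calls that picked the genes.

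Besides ENSOARG00000004871, the gene with the smallest p among those that rose was ENSOARG00000004368. It had 1545, 1378 and 1415 CPM in 4-week replicates 1, 2 and 3, and 453 to 552 CPM (median 487) in the reference. The 3 values lie close together and far above all 6 reference libraries, a layout that picking the smallest p in this split favours. The difference was 1.55 on the log2 scale (SE 0.15, edgeR adjusted p = 0.00225), from means of 1446 ± 87.6 CPM (SD, n = 3) and 495 ± 45.5 CPM (SD, n = 6). The 3 libraries left out had 235, 372 and 717 CPM when all 12 were scaled together, against 427 to 540 CPM in the reference. The highest of them, 8-week replicate 1 with IMR, thus lay between the sides. Pre-MI replicate 2 and 8-week replicate 4 without IMR lay below every reference library.

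ENSOARG00000003862 had the smallest p among the genes that fell. It was at 4.29, 3.61 and 5.17 CPM in the same order and at 17.1 to 23.6 CPM (median 19.4) in the reference, which is -2.17 on the log2 scale (SE 0.22, edgeR adjusted p = 0.00225). ENSOARG00000020328 followed with 3.41, 2.08 and 2.46 CPM against 13.2 to 18.7 CPM (median 13.9), or -2.49 on the log2 scale (SE 0.25, edgeR adjusted p = 0.00225). For both genes the 6 reference libraries formed a narrow band over 3 time points, and all 3 libraries above 5% lay well below it. Picking the smallest p in this split favours that layout here too. Scaled with all 12 libraries, the left-out pre-MI replicate 2 was inside the reference range, at 17.0 and 15.1 CPM. The left-out 8-week libraries, replicate 4 without IMR and replicate 1 with IMR, lay between the sides for both genes. They had 14.3 and 12.54 CPM for the first gene, against 16.7 to 22.2 CPM in the reference. For the second gene they had 11.3 and 8.36 CPM, against 12.8 to 18.3 CPM. Counts were 39 to 405 and 23 to 324 per library. With the threshold at 4% neither these genes nor ENSOARG00000004368 passed (edgeR adjusted p = 0.122, 0.146 and 0.113).

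The largest increase among genes with a mean of at least 5 CPM and sides that did not overlap was uneven. That gene had 2119 CPM in 4-week replicate 1, 384 in replicate 2 and 172 in replicate 3, and 53.6 to 136 CPM in the reference (log2 fold change 3.49, SE 0.62, edgeR adjusted p = 0.00619). Replicate 3 was only a little above the highest reference library, and without replicate 1 the log2 fold change was 1.83. Scaled with all 12 libraries, the left-out pre-MI replicate 2 had 213 CPM, more than the 184 CPM of replicate 3. The left-out 8-week replicate 1 with IMR had 166 CPM and replicate 4 without IMR 46.1 CPM. The next largest increase was uneven in another library, with 129 CPM in replicate 2, 26.6 in replicate 1 and 20.1 in replicate 3, against 2.19 to 10.7 CPM, and its log2 fold change of 3.35 became 2.03 without replicate 2. The largest decrease was from 9.81 to 17.3 CPM in the reference to 2.64, 0.63 and 0.17 CPM in replicates 1, 2 and 3 (log2 fold change -3.41, SE 0.63, edgeR adjusted p = 0.00657). Replicate 1 was the least reduced of the 3, and without it the value was -4.86. Counts of this gene were only 24, 7 and 2 in replicates 1, 2 and 3, against 152 to 206 in the reference.

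The most counted genes were followed by rank, leaving out the 37 lowest-numbered IDs. Of the 19 genes of rank 2 to 20, 7 rose and 0 fell at an adjusted p under 0.05 in edgeR. Over all genes 9.46% were higher and 14.1% lower. Over ranks 2 to 100, which include these 19, the shares were 30.3% and 3.03%. The median log2 fold change of the 19 was 0.69, and 16 of the 19 values were above 0. The sides did not overlap for 4 of the 19, beside 25.6% of all genes.

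The gene of rank 2 did not pass. It had 65483 CPM in 4-week replicate 1, 25388 in replicate 2 and 28550 in replicate 3, against 14587 to 30205 CPM (median 20960) in the reference. Only replicate 1 lay above the reference, and the log2 fold change was 0.88 (SE 0.32, edgeR adjusted p = 0.0644). Ranks 3 and 4 showed the same layout, with 39356 and 27797 CPM in replicate 1 against reference maxima of 22851 and 13590 CPM, while replicates 2 and 3 were inside the reference range. Their edgeR adjusted p was 0.261 and 0.0810.

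Among those that passed, the gene of rank 8 was at 10572, 10547 and 9827 CPM in replicates 1, 2 and 3, against 4241 to 8959 CPM (median 5257). The 3 values were nearly equal, and all were above the reference (log2 fold change 0.78, SE 0.24, edgeR adjusted p = 0.0378). The gene of rank 18 was at 6772, 5746 and 4405 CPM against 2568 to 3771 CPM (log2 fold change 0.86, SE 0.18, edgeR adjusted p = 0.0102). Ranks 12 and 19 were also separate from the reference, with log2 fold changes of 0.82 and 0.69. For rank 19 the left-out 8-week replicate 4 without IMR and replicate 1 with IMR had 4203 and 4475 CPM, scaled with all 12 libraries. Both lay inside the 3800 to 5342 CPM of the 3 libraries above 5%, while the left-out pre-MI replicate 2 had 2972.5 CPM. Ranks 6, 14 and 20 passed although 8-week replicate 3 without IMR, the reference library nearest the 5% threshold, reached into the range of the 3 libraries, with 10286, 5693 and 4777 CPM. For rank 6 those 3 had 9955 to 18338 CPM, for rank 14 5607 to 7101 CPM and for rank 20 4049 to 7554 CPM. With the threshold at 4% all 7 calls were lost (edgeR adjusted p from 0.113 to 0.156). Of 21 alternative settings, the call was lost under 13 for rank 6, 12 for rank 20, 11 each for ranks 8 and 14, 6 for rank 19, 3 for rank 12 and 2 for rank 18. The other 9 genes that did not pass had log2 fold changes from -0.21 to 1.99.

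**Figure D3:**
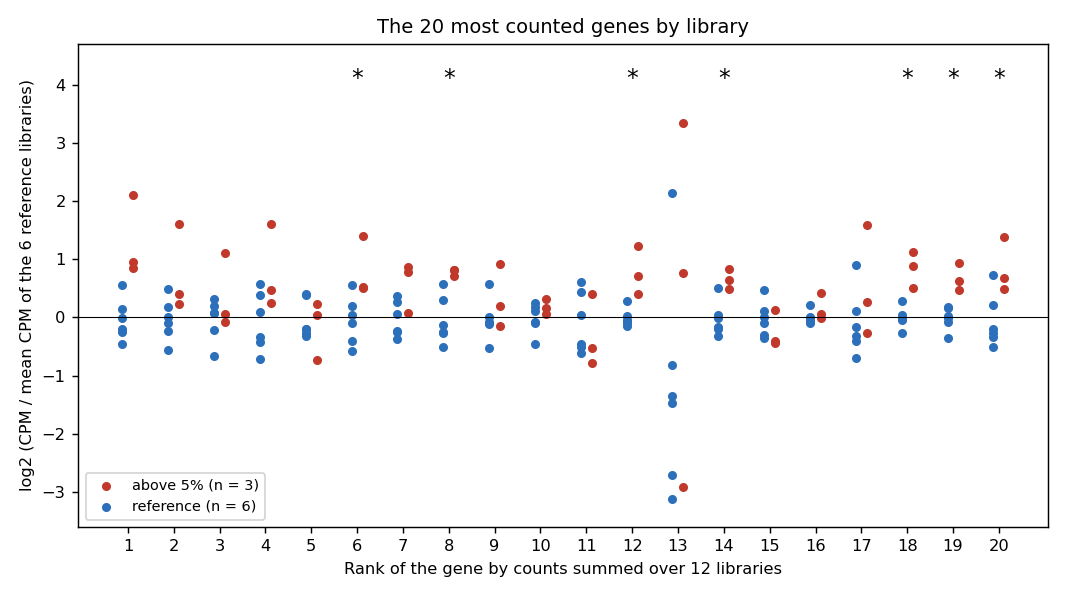
Each point is 1 library's CPM of a gene divided by the mean of the 6 reference libraries (log2 scale, y axis), for the 20 genes with the largest counts summed over 12 libraries (x axis, by rank; rank 1 is the gene that set the split). Stars mark the 7 genes of rank 2 to 20 with an edgeR adjusted p under 0.05, all higher in the 3 libraries; for ranks 2 to 4 a single red point, week 4 replicate 1, stands above the rest.

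The share of ENSOARG00000004871 did not give the order of the libraries along the main axis of the other genes. The first principal component of log2 CPM, computed without the genes of the rule, held 41.0% of the variance. Replicates 2 and 3 with IMR, at 5.34% and 5.74% of counts, lay at 82.2 and 85.5 on it. Replicate 1 without IMR, at 10.2%, lay at 30.1, between them and the reference libraries at -76.9 to -17.8. The far reference end was 4-week replicate 5 without IMR, with a share of 3.07%. The second component (14.0% of the variance) put replicate 1 at 61.1 and replicate 2 at -46.0, the ends of that axis.

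**Figure D4:**
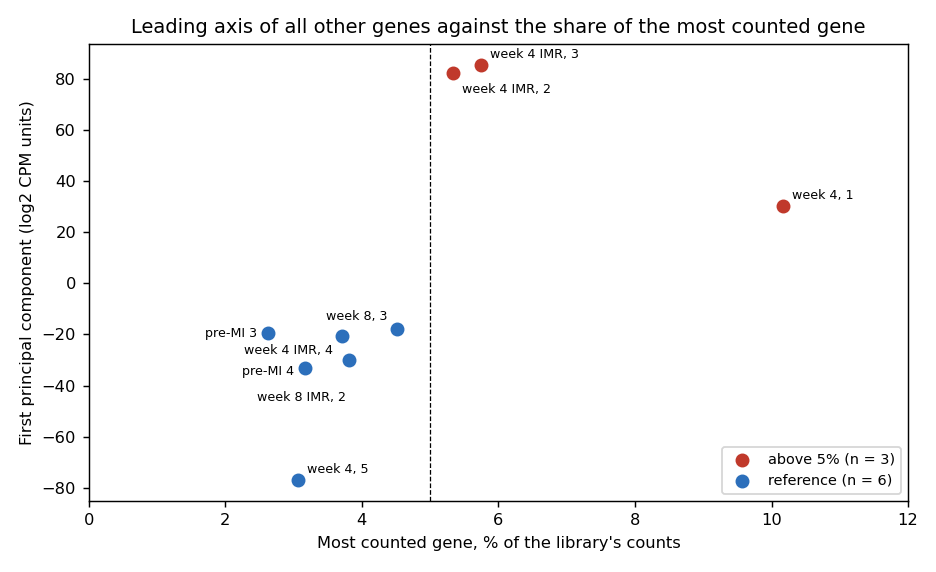
Each point is 1 of 9 libraries, with the share of the most counted gene on the x axis (percent of counts) and its score on the first principal component of all other genes on the y axis (log2 CPM units). The dashed line marks 5%; the library with the largest share, 10.2%, scores 30.1, while libraries with 5.34% and 5.74% score 82.2 and 85.5.

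Over the called genes, which these libraries chose, replicate 1 was again nearest the reference. Over the 1982 lower genes, the median log2 difference from the reference mean was -0.82 in replicate 1, -1.38 in replicate 2 and -1.32 in replicate 3. Over the 1327 higher genes it was 0.87, 1.10 and 0.98. Replicate 1 was the library of the 3 nearest the reference for 1445 of the lower genes (72.9%) and 650 of the higher genes (49.0%). The 3 libraries also differed among themselves. Among 10783 genes with a mean of at least 5 CPM, 983 were more than 2-fold above both other libraries in replicate 1, against 109 in replicate 2 and 129 in replicate 3. Those more than 2-fold below both others numbered 412 in replicate 1, 312 in replicate 2 and 141 in replicate 3. Without replicate 1, 4255 genes passed in edgeR.

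On the reference side, pre-MI replicate 3 was the library nearest the 3 for 413 of the higher genes and 719 of the lower genes, the most of the 6. The 4-week replicate 4 with IMR was the nearest for 265 and 411, while 4-week replicate 5 without IMR was the nearest for only 57 and 100. The 4-week reference libraries thus did not stand together in this respect.

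Apart from the genes of the rule, libraries were on average more alike within a side than between sides. Pearson's r of log2 CPM was computed across genes, which do not count as replicates. It averaged 0.924 over the 3 pairs among the libraries above 5%, 0.939 over the 15 reference pairs and 0.889 over the 18 pairs between sides. The mean between sides minus the mean within them was -0.0470. A one-sided exact permutation test over the 84 ways to choose 3 of 9 libraries gave p = 0.0119, the smallest it can give. The 3 libraries were all from 4 weeks and were chosen by measured counts. This p-value thus describes the 9 libraries and tests no treatment. Replicates 2 and 3 correlated at 0.941 with each other. Replicate 1 correlated at 0.925 with replicate 3 and 0.908 with replicate 2, and at 0.922 with each of pre-MI replicate 4 and 4-week replicate 4 with IMR. It correlated at 0.918 with each 8-week reference library, 0.909 with pre-MI replicate 3 and 0.873 with 4-week replicate 5 without IMR. Replicate 1 was thus more like every reference library but the last than like replicate 2. The lowest value, 0.810, was between 4-week replicate 3 with IMR and 4-week replicate 5 without IMR.

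**Figure D5:**
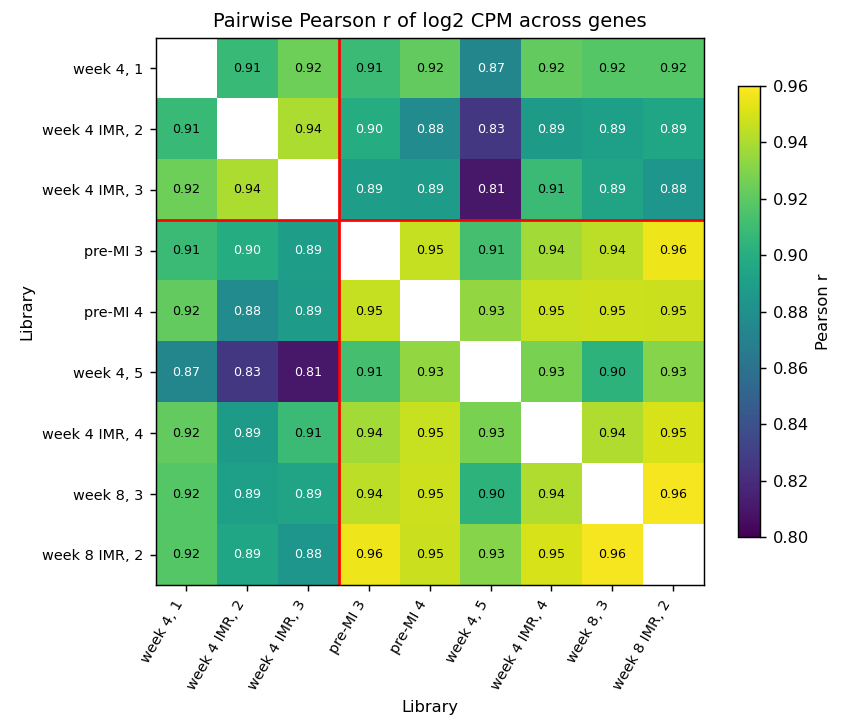
Each cell is the Pearson correlation of log2 CPM across genes between the library in its row and that in its column, without the genes of the rule (colour scale from 0.80 to 0.96); red lines part the 3 libraries above 5% from the 6 reference libraries. Values between the sides average 0.889, with the darkest cells against week 4 replicate 5, and week 4 replicate 1 differs little in colour between the sides.

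Since all 3 libraries above 5% came from 4 weeks, the split was repeated within that time, against 4-week replicate 5 without IMR and replicate 4 with IMR. In edgeR, 0 of 14005 genes (0%) passed, with adjusted p-values of 0.0636 or more. Before adjustment 4400 genes (31.4%) had a p under 0.05, of which 2047 were higher and 2353 lower. The sides did not overlap for 7306 genes (52.2%), 3875 higher (27.7%) and 3431 lower (24.5%). With 3 against 2 libraries more genes part by chance than with 3 against 6, so 52.2% is not comparable to the 25.6% there. limma voom also passed 0 genes, DESeq2 passed 3106, and edgeR passed 3911 without replicate 1. ENSOARG00000004368 had a log2 fold change of 1.51 (SE 0.26) within 4 weeks, ENSOARG00000003862 -2.13 (SE 0.33) and ENSOARG00000020328 -2.60 (SE 0.37), each with an edgeR adjusted p of 0.0636. These sizes are close to those over all 9 libraries, with which they share 5.

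Set against the reference libraries of each time alone, 2 per time, the 1327 higher genes had a median log2 difference of 0.82 from pre-MI, 1.03 from 4 weeks and 0.85 from 8 weeks. For the 1982 lower genes the medians were -1.18, -1.38 and -1.25. All 6 libraries helped to choose these genes, so the values describe the size only. With a term for 4 weeks in the model, 2925 genes passed in edgeR, 1230 higher and 1695 lower. All 3 libraries above 5% came from 4 weeks, so with this term only the 4-week libraries, 3 against 2, set the difference. The pre-MI and 8-week libraries, pooled as 1 level, then served only to estimate the spread. With a term for IMR, added after the data were seen, 2546 passed, 879 higher and 1667 lower. IMR was present in 2 of the 3 libraries above 5% and in 2 of the 6 reference libraries.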

How the data were processed

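Poly-A RNA was sequenced from 12 leaflets of 12 animals, per the labels. The authors deposited raw integer counts for 25197 Ensembl sheep IDs in 12 columns, 4854 of the IDs at 0 throughout. The submitters' processing notes name Bowtie2 2.2.3, TopHat2 2.0.12 and HTSeq 0.6.1. The genome build, annotation, strandedness and handling of shared reads are not given in the sources used here, so paralogs, overlapping and antisense genes are uncertain. The series text counts 13 animals, but its groups add up to 12. Of the IDs, 0 matched the names table, so 22 gene lists (245 symbols) were not used. No libraries agreed within sampling noise (chi-square per degree of freedom of 44.9 or more).

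The split used the stated 5% thresholds. Genes were filtered with filterByExpr (14041 kept in the 3 against 6, 99.92% of counts) and fitted in edgeR 4.0.16 (R 4.3.3; TMM, robust quasi-likelihood, Benjamini-Hochberg at 0.05, 7 residual degrees of freedom). The gene of the rule and the 37 IDs were fitted but left out of all counts of calls. TMM factors were 0.732 to 0.918 in the 3 libraries and 0.948 to 1.15 in the reference. The standard error is the log2 fold change over the square root of F. Log2 CPM used a prior count of 2. The rule for named genes was, without symbols, the gene of the split, the smallest p among others that rose and the smallest 2 that fell, with ranks 2 to 20 described without ID. The genes of largest change are also given without ID. The libraries, lists and tests were chosen with earlier results of these data known. On simulated counts of 14041 genes with 200 changed, the 3 against 6 comparison recovered 0% of 2-fold, 70.5% of 4-fold and 92.5% of 8-fold changes, with 0 calls when nothing changed. The data themselves gave calls under 2-fold, so recovery with 200 changed genes does not describe this comparison's limit. Alternatives used DESeq2 1.42.0 and limma 3.58.1; figures used matplotlib 3.10.9. Binomial intervals cover counting error only, because PCR copies of a molecule were not told apart.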

Additional observations from a re-analysis of the deposited data

Results flagged for a closer look

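Within the 6 reference libraries, a value was taken as far from the others when its gap to the nearest, divided by the range, passed Dixon's critical value of 0.625. Of 35 comparisons 5 stood out, where chance gives about 1.75.

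For the gene of rank 13, 4-week replicate 4 with IMR stood at 1096 CPM, and the other reference libraries at 28.4 to 140 CPM. In the libraries above 5% it had 421, 32.9 and 2511 CPM in replicates 1, 2 and 3, so it did not follow the split (log2 fold change 1.99, SE 1.29, edgeR adjusted p = 0.280).

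In 8-week replicate 3 without IMR, the reference library nearest the threshold, the genes of rank 12, 14 and 17 stood above the other reference libraries. They had 4937 CPM against 3677 to 4127, 5693 CPM against 3196 to 4099, and 6070 CPM against 1995 to 3499. In 4-week replicate 5 without IMR the gene of rank 16 had 4382 CPM, against 3550 to 3801 CPM in the rest.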

How the results depend on the processing

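For the 3 against 6, the count of 3309 genes stayed within 1.5 times under DESeq2 (4557), limma voom and RLE factors. The same held for other filters and for scaling without the genes of the rule. It also held with all 12 libraries (2218 for 3 against 9) and with terms for 4 weeks or IMR. The term for 4 weeks left the difference to the 4-week libraries alone. The count was 1165 to 4255 when 1 library was left out, and 0 with the 4% threshold. That threshold and the term for IMR were chosen after the data were seen. The cause of these shifts was not tested. Of the 3309 genes, 3304 also passed in DESeq2, 2998 in limma voom, 2461 with the term for IMR, 2215 with the term for 4 weeks, 1914 for 3 against 9 and 1114 without 4-week replicate 2. The higher genes were 40.1% of calls, and 52.0% when all 12 libraries were fitted as 3 groups, which moved the median of all genes to 0.11. Within 4 weeks the count of 0 became 3106 in DESeq2 and 1302 with no filter on low counts, and 0 to 3911 when 1 library was left out; the cause was not tested. The difference in library correlation was -0.0771 to -0.0420 with RLE factors, a mean CPM of at least 5 or 1 library left out, each at the smallest p its design allows, which says nothing of stability; it was -0.0289 with the 4% threshold (one-sided exact permutation p = 0.0159), added after the data were seen. A block on the replicate number passed 2604 genes in edgeR, 750 higher and 1854 lower, 1931 of them shared with the 3309. It passed none of the 7 called genes of rank 2 to 20 (edgeR adjusted p from 0.0832 to 0.510). Under this block only replicates 2 and 3, which stand on both sides, set the difference. Replicate 1 without IMR, alone with its number in the split, did not contribute, so this was not an adjusted 3 against 6. Deviations of 1 of 3 same-numbered pairs across the sides correlated over 0.1, and the numbers were not taken as pairs. Among 16 single genes, 0 reversed; 266 of 336 alternatives kept the call and 70 lost it.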

Other observations

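The 3 libraries left out for their share of the 37 lowest-numbered IDs (5.97% to 11.3%) took no part in choosing the called genes. Scaled with all 12 libraries, 8-week replicate 1 with IMR had a median log2 difference from the reference mean of 0.52 over the 1327 higher genes and -0.51 over the 1982 lower genes. The values were 0.21 and -0.31 in 8-week replicate 4 without IMR, and 0.23 and -0.16 in pre-MI replicate 2. Reference libraries ran from -0.32 to 0.11 over the higher genes and from -0.21 to 0.28 over the lower genes. The share of ENSOARG00000004871 was 1.66% in 8-week replicate 1 with IMR, the lowest of the series. The reference libraries that these differences are taken from also chose the genes.

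The gene of rank 13 set those 3 libraries apart, with 15613 CPM in pre-MI replicate 2, 23025 CPM in 8-week replicate 4 without IMR and 10125 CPM in 8-week replicate 1 with IMR. The other 9 libraries had 27.2 to 2679 CPM on the same scale, with the highest value in 4-week replicate 3 with IMR.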
